A study of Homo sapiens with 14 samples.

Results

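Collagens, laminins and integrins were described in PANC-1 cells treated with proanthocyanidins (PA), with the RNA of 14 libraries as the measurement. Members were all protein-coding genes of the deposited count table whose symbol is that of a collagen alpha chain, a laminin chain or an integrin subunit. The rule found 75 genes among 28120 rows: 43 collagens, 12 laminins and 20 integrins. Of these, 52 had at least 10 reads in at least 2 libraries, namely 26 collagens, 10 laminins and 16 integrins, and all 52 entered the test across 15181 genes.

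PANC-1 is an established human cell line from a pancreatic ductal carcinoma. PA are plant polyphenols built of linked flavan-3-ol units, and DMSO is the solvent used as the vehicle. The tested groups were PA at 20 µg/ml for 3, 12 and 24 h, and the groups set against them were DMSO at 3, 12 and 24 h, with a further DMSO group at 0 h. Each of the 7 groups had 2 libraries. All came from the same cell line, kept as monolayers in serum-containing medium, with no stroma or other cell type added. The submitters call the second library of each group a biological replicate, but no label ties it to a separate culture, so each p-value reflects the variation among these libraries alone, and that variation may be technical. In such bulk RNA, fewer cells that express a gene and less RNA per cell cannot be told apart.

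Collagens are triple-helical proteins of the extracellular matrix. Fibrillar collagens form the cables of connective tissue, type IV collagen forms the sheet of the basement membrane, and other types link fibres, anchor epithelia or span the cell membrane. Laminins are cross-shaped trimers of an alpha, a beta and a gamma chain that form the other main network of the basement membrane. Integrins are receptors made of an alpha and a beta subunit at the cell surface. The alpha subunit largely sets which matrix protein is bound, and ITGB1 is the shared partner of most alpha subunits. Pancreatic carcinoma is known for a dense collagen-rich stroma, most of which is laid down by fibroblasts rather than by the carcinoma cells.

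Library depth ranged from 26403984 to 35213154 reads assigned to genes. Epithelial keratins were abundant, and 4 of 6 epithelial markers (KRT8, KRT18, KRT19 and KRT7) were higher in PA at both 12 and 24 h. The remaining markers of that list, EPCAM and CDH1, were called at neither of these times. Of all genes tested, 24.4% were called higher and 24.1% lower at 12 h (edgeR adjusted p under 0.05). At 24 h these shares were 27.2% and 27.5%. Of 3 markers of a mesenchymal state, ZEB1 and CDH2 were lower at both times. VIM, the most abundant of the 3, changed by 0.24 and 0.16 on the log2 scale (edgeR adjusted p = 0.203 and 0.397). The 3 markers summed to 2508 to 2914 CPM in PA at 12 h, against 2361 to 2390 CPM in DMSO. At 24 h they summed to 2124 to 2615 CPM in PA, against 2094 to 2254 CPM in DMSO. The 6 epithelial markers summed to 18127 to 20920 CPM in PA at 24 h, against 5967 to 5991 CPM in DMSO, and their part in the results was not tested. Markers of fibroblasts summed to at most 0.368 CPM (counts scaled to library size, in parts of 1000000), those of endothelium to at most 1.30 CPM and those of acinar cells to at most 0.0685 CPM in the PA and DMSO libraries at 3, 12 and 24 h. Counts in PA libraries leaned towards GC-rich transcripts: the slope of log2 counts on GC content was 0.578 and 0.124 per 10 percentage points in PA at 12 h, against -0.319 and -0.293 in DMSO, and 0.328 and 0.490 in PA at 24 h, against -0.266 and -0.217 in DMSO. For that reason a second fit with a correction for GC content and transcript length stands beside the results, as the corrected fit. The libraries of PA at 12 h stood apart from each other more than those of any other group, with a Spearman correlation across genes of 0.978, against 0.989 to 0.996 in the other 6 groups.

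Read by RPKM (reads per kilobase of transcript and scaled to library size, the unit on which genes of different length can be compared), integrins were the most abundant of the 3 families. ITGB1 had a mean level of 359 RPKM over the 14 libraries (range 161 to 484), and ITGA3, an alpha subunit of the laminin receptors of epithelia, had 177 RPKM (108 to 275). Their ranges overlapped. ITGB5, which pairs with ITGAV, followed with 87.5 RPKM (72.2 to 105). COL18A1, the basement membrane collagen that is the source of endostatin, had 59.3 RPKM (42.2 to 78.5) and ITGA6 had 57.4 RPKM (22.1 to 90.2). These last 2 did not differ beyond their ranges.

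The next levels were 40.1 RPKM for ITGA5, 32.4 RPKM for COL13A1, 29.1 RPKM for LAMC1, 28.8 RPKM for ITGAV and 22.2 RPKM for COL5A2. In all, 25 members had a mean of at least 1 RPKM: 10 collagens, 7 laminins and 8 integrins. COL1A1, the chain that makes up most of type I collagen, reached only 2.67 RPKM (1.16 to 4.11). Its partner chain COL1A2 had 7 reads in all 14 libraries together and no more than 2 in any of them.

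COL1A2 belongs to the 23 members below the reading minimum, 17 collagens, 2 laminins and 4 integrins. None of them had more than 9 reads in a library, and each had at least 1 read in some library. Among them were COL2A1 of cartilage, COL4A3 and COL4A4, which form the type IV network of the kidney glomerulus with COL4A5, and the integrin subunits ITGA4, ITGA9, ITGB6 and ITGB7. At this depth no difference between PA and DMSO could be measured in these genes.

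**Figure D1:**
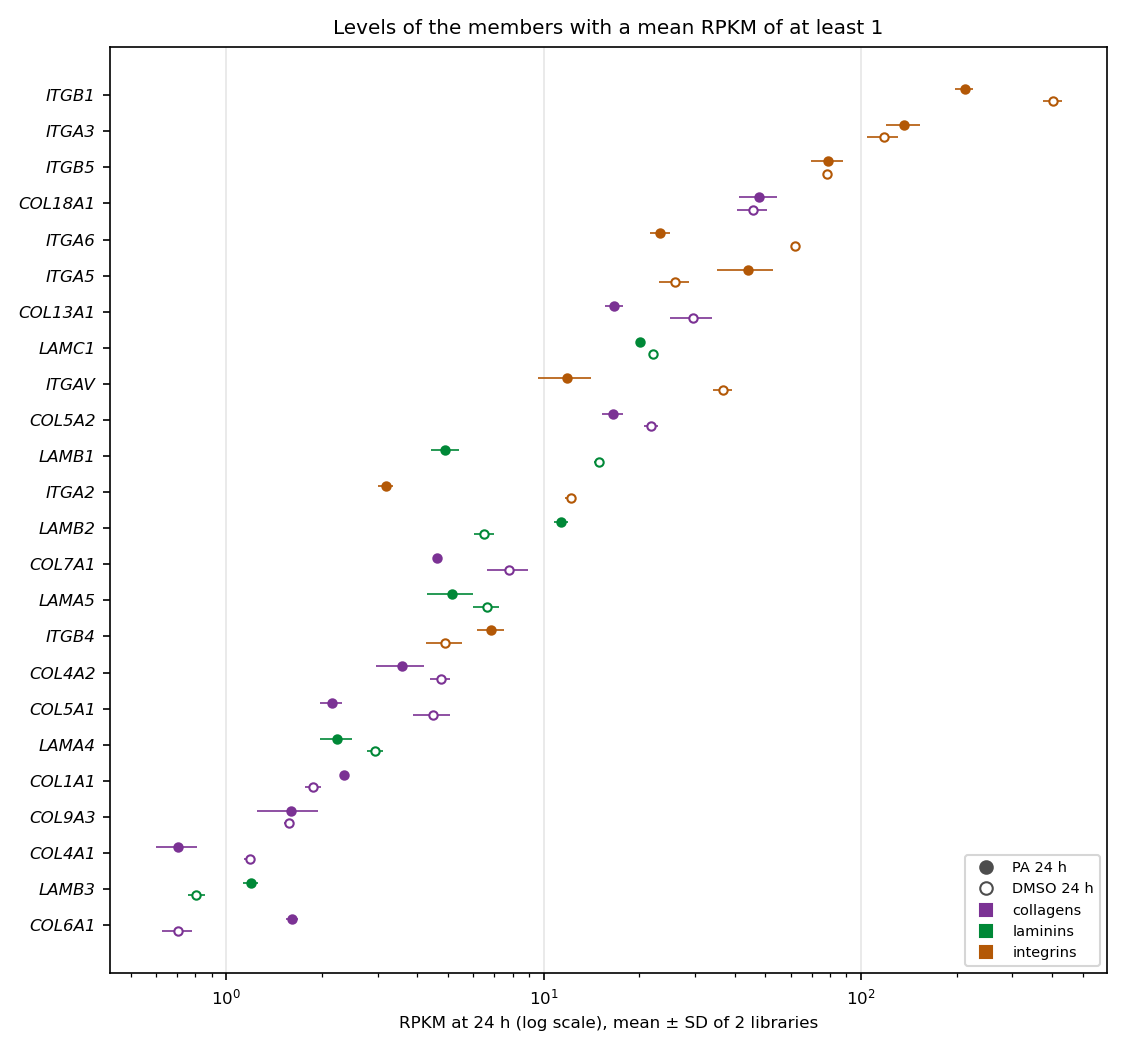
Level of 24 of the 25 members with a mean of at least 1 RPKM, in PA at 24 h (filled points) and in DMSO at 24 h (open points), as the mean of 2 libraries with the SD, on a log axis; colours mark the families. ITGB1 is the highest member in both groups, and LAMB1, ITGA2, ITGA6 and ITGAV lie well to the left in PA, while LAMB2, ITGA5 and COL6A1 lie to the right.

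At 12 h, 8 members were higher and 15 lower in PA than in DMSO in edgeR's quasi-likelihood test (Benjamini-Hochberg adjusted p under 0.05 over all genes tested), which is 23 of 52. Of all genes tested, 48.5% passed the same test at 12 h (24.4% higher and 24.1% lower). The median log2 change was -0.06 over the members and 0.01 over all genes. At 24 h, 12 members were higher and 12 lower, against a background of 54.6% of all genes (27.2% higher and 27.5% lower), and the medians were -0.08 over the members and -0.01 over all genes. Over both directions and all 52 members, the share called was thus no larger than that of all genes (44.2% at 12 h and 46.2% at 24 h). This does not hold for each direction or each family taken alone.

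At 3 h, 3 members were lower in PA, COL24A1, COL27A1 and LAMB1, against a background of 1.72% of all genes (1.58% lower and 0.138% higher), and none was higher. No member reached an unadjusted p under 0.05 in the higher direction at 3 h, and 9 did in the lower direction; DESeq2 called 0 higher and 2 lower. The background at 3 h is itself unsteady: the 261 genes called became 29 without the first PA library and 72 to 178 without any other library of that time, and 1182 with the libraries of 3 h alone. The PA pair was below the DMSO pair in 17 members at 3 h (27.9% of all genes), 21 at 12 h (37.8% of all genes) and 18 at 24 h (40% of all genes). The PA pair was above the DMSO pair in 8 members at 3 h (26.7% of all genes), 17 at 12 h (37.3%) and 19 at 24 h (39%).

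The 12 h and the 24 h comparisons, which share no library, called 17 members at both times, 6 higher and 11 lower at both, with none in opposite directions. Of all 15181 genes, 3055 were higher and 3047 lower at both times and 21 opposite, so the shared direction is what nearly all genes called at both times showed. A further 6 members passed only at 12 h, 7 only at 24 h, and 22 at neither time (1240, 2173 and 5645 of all 15181 genes). By family, laminins had 1 member higher and 3 lower at 12 h and 2 and 2 at 24 h. Integrins had 2 higher and 5 lower at 12 h and 5 and 6 at 24 h. Collagens had 5 higher and 7 lower at 12 h and 5 and 4 at 24 h. The shares called at 12 h were 40% of laminins, 43.8% of integrins and 46.2% of collagens, against 48.5% of all genes. At 24 h they were 40%, 68.8% and 34.6%, against 54.6% of all genes. In the corrected fit at 24 h they were 50%, 37.5% and 50%, against 49.7% of all genes.

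**Figure D2:**
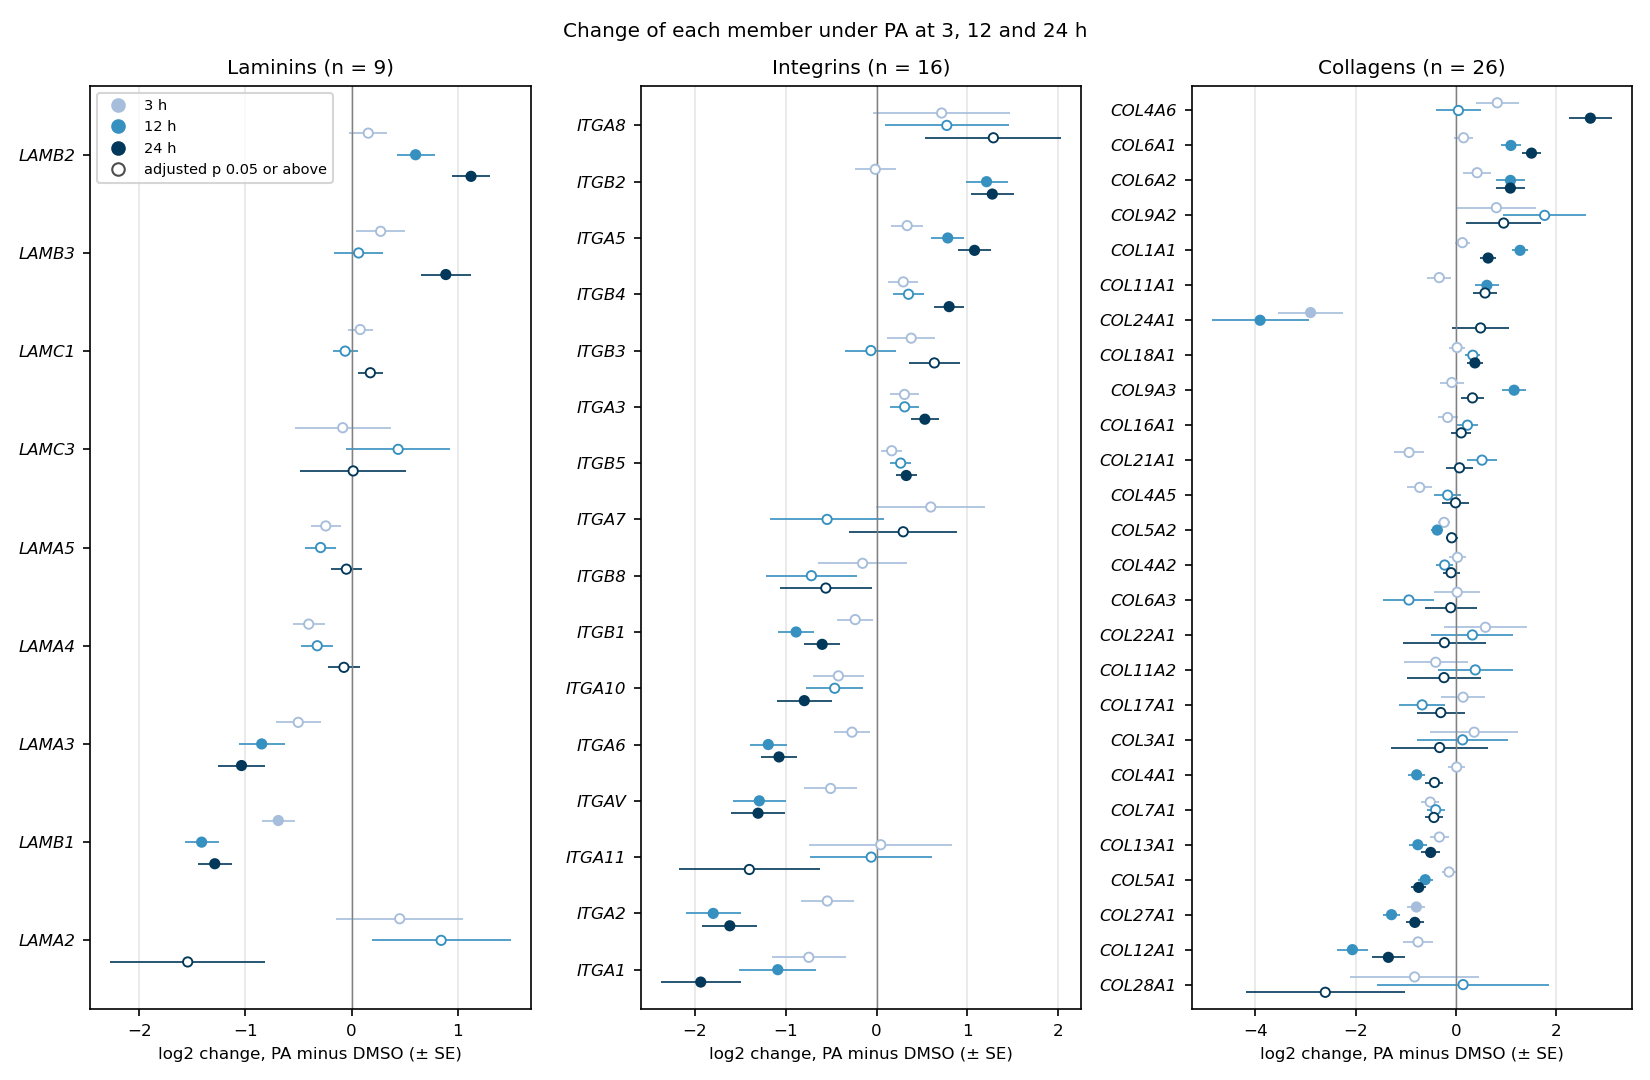
Log2 change of 51 of the 52 members, PA minus DMSO, at 3, 12 and 24 h with its SE from the edgeR fit; filled points passed an adjusted p of 0.05, the members run down each panel by their change at 24 h, and each panel has its own axis range. In each family members stand on both sides of 0, with LAMB2, ITGB2, ITGA5, COL4A6 and COL6A1 to the right and LAMB1, ITGA1, ITGA2 and COL12A1 to the left.

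The laminin beta chains moved in opposite directions: LAMB1 fell at all 3 times, while LAMB2 and LAMB3 were higher in PA at 24 h. LAMB1 is the beta chain of laminins found in most basement membranes during development, and LAMB2 takes its place in synaptic and glomerular basement membranes. LAMB1 lies at chr7:107923799-108003255 and LAMB2 at chr3:49121114-49133118, both on the minus strand (GRCh38, GENCODE 29). Their promoters are shown because the beta chains that replace each other in the trimer changed in opposite directions. The 250 bases before the RefSeq start (GRCh38.p14) are chr7:108003162-108003411 for LAMB1 and chr3:49133051-49133300 for LAMB2, minus strand, 5′ to 3′; the GENCODE genes begin inside these windows. Capitals mark the GC box, searched as GGGCGG or CCGCCC, which is the same motif on the other strand; overlapping matches were counted.
LAMB1: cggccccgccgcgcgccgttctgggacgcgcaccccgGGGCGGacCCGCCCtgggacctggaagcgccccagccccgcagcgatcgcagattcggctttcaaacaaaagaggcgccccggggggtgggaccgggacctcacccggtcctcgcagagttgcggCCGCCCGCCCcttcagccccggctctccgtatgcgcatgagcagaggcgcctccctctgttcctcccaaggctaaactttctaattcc
LAMB2: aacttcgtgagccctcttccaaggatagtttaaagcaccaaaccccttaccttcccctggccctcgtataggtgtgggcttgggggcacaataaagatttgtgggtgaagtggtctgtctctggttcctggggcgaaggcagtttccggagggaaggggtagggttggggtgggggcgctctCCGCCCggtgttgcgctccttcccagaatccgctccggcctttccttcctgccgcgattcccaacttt
The LAMB1 window holds 4 GC boxes and 70.4% G or C, and the LAMB2 window holds 1 GC box and 58.4% G or C. A GC box is present in 42.6% of the 35116 RefSeq windows of the same length, whose median GC content is 58%. The matches are a description of letters and no measure of binding.

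At 3 h LAMB1 had 82.7 and 82.4 CPM in PA, against 129.9 and 137 CPM in DMSO. Both PA libraries were below both DMSO libraries, and the log2 change was -0.69 ± 0.16 (SE, edgeR adjusted p = 0.0393). At 12 h it had 45.1 and 61.6 CPM in PA, against 149 and 135 CPM in DMSO, a change of -1.41 ± 0.16 (adjusted p = 3.26e-05). At 24 h the values were 36.8 and 41.6 CPM in PA, against 96.9 and 94.4 CPM in DMSO (-1.29 ± 0.16, adjusted p = 3.66e-05). Before treatment, in DMSO at 0 h, LAMB1 stood at 128 and 106 CPM, so that every PA library was below every DMSO library of any time. The corrected fit gave -0.68, -1.35 and -1.14 at 3, 12 and 24 h (adjusted p = 0.00758, 2.39e-06 and 5.62e-06). The call at 3 h ended when any of the 4 libraries at 3 h was left out: the adjusted p was 0.454 and 0.152 without each PA library and 0.163 and 0.179 without each DMSO library. The 12 h and 24 h calls passed in each such fit, with adjusted p up to 0.000791 and 0.000876.

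LAMB2 had 82.4 and 86.2 CPM in PA at 24 h, against 36.3 and 41.0 CPM in DMSO. The groups did not overlap, and LAMB2 rose by 1.13 ± 0.18 on the log2 scale (adjusted p = 0.000223), or by 0.64 in the corrected fit (adjusted p = 0.000166). At 12 h it had 89.8 and 59.1 CPM in PA, against 48.4 and 49.6 CPM in DMSO (0.60 ± 0.18, adjusted p = 0.0136). That earlier call ended in the corrected fit (0.08, adjusted p = 0.565) and when the first PA library (0.27, adjusted p = 0.202) or either DMSO library (adjusted p = 0.0775 and 0.0599) was left out. At 3 h LAMB2 had 74.3 and 71.8 CPM in PA, against 72.6 and 58.5 CPM in DMSO, which did not pass (0.16 ± 0.18, adjusted p = 0.663).

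The level of LAMB2 relative to LAMB1, a ratio of RPKM within each library, does not depend on how libraries are scaled. It was 0.969 and 0.941 in PA at 3 h, against 0.602 and 0.463 in DMSO. It was 2.15 and 1.04 in PA at 12 h, against 0.352 and 0.397 in DMSO, and 2.41 and 2.24 in PA at 24 h, against 0.404 and 0.468 in DMSO. LAMB1 thus led in all 8 DMSO libraries (0.377 and 0.496 at 0 h) and in both PA libraries at 3 h, and LAMB2 led in all 4 PA libraries at 12 and 24 h. The transcripts differ in GC content, 49.5% in LAMB1 and 60.3% in LAMB2, and this ratio is not corrected for it.

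LAMA3 and LAMB3 are chains of the laminin that anchors epithelia. LAMA3 (chr18:23689443-23956222) had 3.60 and 3.82 CPM in PA at 12 h, against 6.64 and 6.70 CPM in DMSO, and 2.29 and 3.28 CPM in PA at 24 h, against 5.72 and 5.72 CPM in DMSO. The groups were apart at both times, with changes of -0.85 ± 0.22 (adjusted p = 0.00609) and -1.04 ± 0.22 (adjusted p = 0.00156), and both calls held in the corrected fit (adjusted p = 0.00628 and 0.0018). LAMB3 had 6.73 and 7.08 CPM in PA at 24 h, against 3.53 and 3.93 CPM in DMSO (0.89 ± 0.24, adjusted p = 0.00629). This call ended in the corrected fit (0.42, adjusted p = 0.098) and without the first DMSO library at 24 h (adjusted p = 0.0531).

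LAMC1, LAMA5, LAMA4, LAMA2 and LAMC3 did not pass at any time. LAMC1, the gamma chain of most laminins, had 205 and 203 CPM in PA at 24 h, against 175 and 186 CPM in DMSO (0.18 ± 0.12, adjusted p = 0.226), and passed in the corrected fit alone (0.40, adjusted p = 0.003). LAMA5, the alpha chain of laminin-511, had 90.2 and 82.1 CPM in PA at 12 h, against 106 and 105 CPM in DMSO (-0.29 ± 0.14, adjusted p = 0.106). In the corrected fit LAMA5 was lower at 12 h (-0.86, adjusted p = 2.50e-05) and at 24 h (-0.67, adjusted p = 0.000122); its transcript is 66.4% G or C. LAMA4 had 27.4 and 26.8 CPM in PA at 12 h, against 35.9 and 32.0 CPM in DMSO (-0.32 ± 0.15, adjusted p = 0.0928), and LAMA2 and LAMC3 had means of at most 0.221 RPKM.

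**Figure D3:**
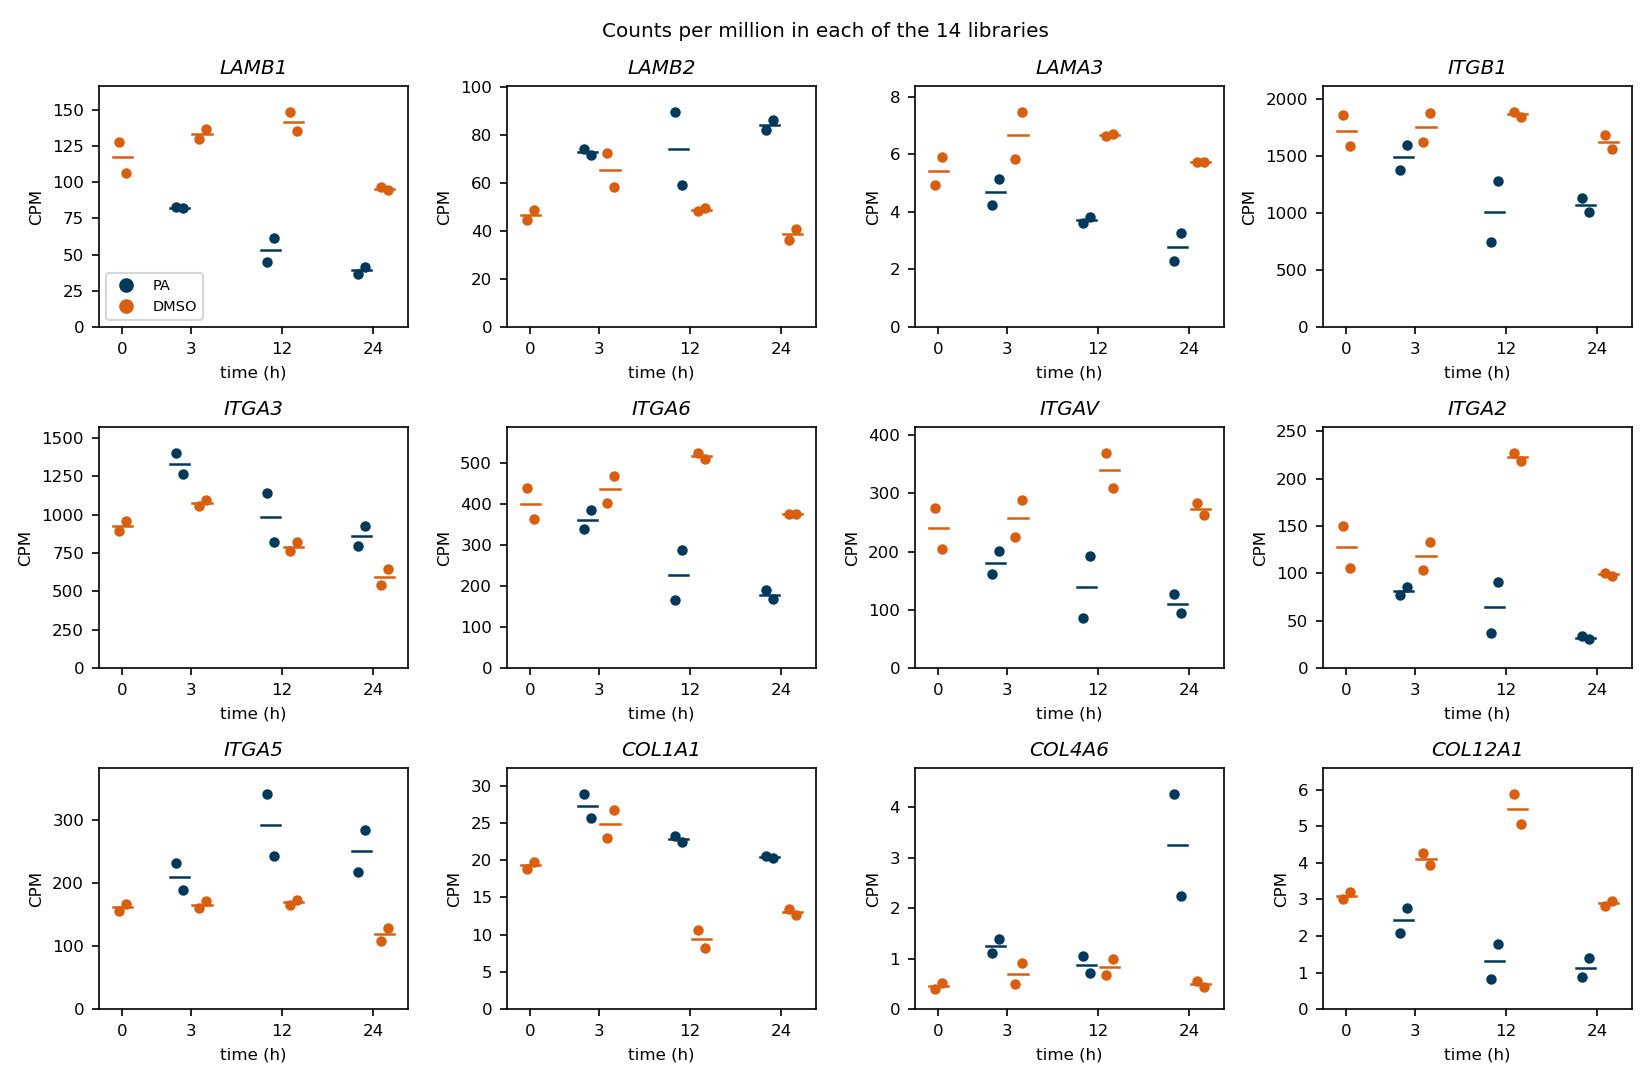
CPM of 12 members in each of the 14 libraries, with PA left of DMSO at each time and DMSO at 0 h first; short lines are the means of 2 libraries. LAMB1 is lower in PA at each time, LAMB2 and ITGA5 are higher at 24 h, and the PA libraries at 12 h lie far apart for ITGB1, ITGA6, ITGAV and ITGA2.

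Among the integrins, the subunits that bind laminin, collagen and the RGD motif each held members that moved in PA, and the shared subunit ITGB1 fell. ITGB1 (chr10:32900319-33005792) had 742 and 1278 CPM in PA at 12 h, against 1888 and 1846 CPM in DMSO, and 1135 and 1009 CPM in PA at 24 h, against 1687 and 1559 CPM in DMSO. Every PA library at these times was below every DMSO library of any time. The changes were -0.89 ± 0.20 at 12 h (adjusted p = 0.00282) and -0.60 ± 0.20 at 24 h (adjusted p = 0.0201). In the corrected fit neither call held: the change was -0.10 at 12 h (adjusted p = 0.408) and turned to 0.22 at 24 h (adjusted p = 0.0594). The 24 h call also ended without the second PA library (adjusted p = 0.154) or the first DMSO library (adjusted p = 0.0998), and the 12 h change ranged from -1.33 to -0.55 when 1 PA library was left out. ITGB1 is AT-rich for this set, with 40.0% G or C.

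ITGA6 and ITGA3 are laminin-binding alpha subunits, and ITGB4 pairs with ITGA6 in hemidesmosomes. ITGA6 (chr2:172427354-172506282) had 166 and 287 CPM in PA at 12 h, against 525 and 510.4 CPM in DMSO, and 189.5 and 167 CPM in PA at 24 h, against 376 and 375 CPM in DMSO. Both PA libraries were below both DMSO libraries at each time. The changes of -1.19 ± 0.20 (adjusted p = 0.000518) and -1.07 ± 0.20 (adjusted p = 0.000643) shrank in the corrected fit to -0.64 (adjusted p = 0.000332) and -0.44 (adjusted p = 0.00357), which still passed. Without the second PA library the 12 h change was -1.64.

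In DMSO at 0 h ITGA3 had 893 and 960 CPM, and its mean in PA at 24 h, 859 CPM, was not above these. At 24 h it had 794 and 924 CPM in PA, against 541 and 647 CPM in DMSO (0.53 ± 0.16, adjusted p = 0.0111). Although the groups did not overlap, the corrected fit gave -0.00086 (adjusted p = 0.995), and the call ended without the second PA library (adjusted p = 0.0645) or the first DMSO library (adjusted p = 0.113). ITGB4 had 51.5 and 57.7 CPM in PA at 24 h, against 28.2 and 34.5 CPM in DMSO (0.80 ± 0.17, adjusted p = 0.00141; corrected fit 0.20, adjusted p = 0.14). Within each library the level of ITGA3 over ITGA6 was 5.10 and 6.72 in PA at 24 h, against 1.73 and 2.07 in DMSO, and 8.31 and 3.43 in PA at 12 h, against 1.74 and 1.92 in DMSO. The PA libraries were above the DMSO libraries in both cases. The transcript of ITGA3 has 60.9% G or C and that of ITGA6 42.9%, and the ratio is not corrected for it.

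Of the collagen-binding alpha subunits, ITGA1, ITGA2 and ITGA10 were lower in PA at 24 h. ITGA2 (chr5:52989326-53094779), the main collagen receptor subunit of epithelia and platelets, had 37.2 and 91.0 CPM in PA at 12 h, against 227 and 219 CPM in DMSO. At 24 h it had 33.9 and 30.6 CPM in PA, against 101 and 97.0 CPM in DMSO. The groups were apart at both times, by -1.80 ± 0.30 (adjusted p = 0.000487) and -1.62 ± 0.30 (adjusted p = 0.000629), and the corrected fit kept both calls at -0.97 (adjusted p = 0.000183) and -0.72 (adjusted p = 0.00153). Leaving out 1 library at 12 h moved the change between -2.58 and -1.29. At 3 h, with 77.0 and 85.2 CPM in PA, against 103 and 133 CPM in DMSO, ITGA2 did not pass (-0.54 ± 0.29, adjusted p = 0.355).

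ITGA1, which also binds collagen, had 0.846 and 0.593 CPM in PA at 24 h, against 2.34 and 3.19 CPM in DMSO. With the groups apart, the change was -1.94 ± 0.44 (adjusted p = 0.00227; corrected fit -0.93, adjusted p = 0.0352). At 12 h it had 0.612 and 1.57 CPM in PA, against 2.91 and 1.76 CPM in DMSO (-1.09 ± 0.42, adjusted p = 0.0466). The 12 h call ended in the corrected fit (-0.07, adjusted p = 0.896), without the first PA library (-0.56, adjusted p = 0.34) and without the first DMSO library (-0.68, adjusted p = 0.311). ITGA10 had 1.27 and 2.13 CPM in PA at 24 h, against 3.53 and 2.36 CPM in DMSO (-0.80 ± 0.31, adjusted p = 0.0402), a call that ended without the first PA library (-0.48, adjusted p = 0.266) or the first DMSO library (-0.48, adjusted p = 0.315). ITGA11 had at most 0.716 CPM in any library.

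ITGA5 and ITGAV, alpha subunits that recognise the RGD motif of fibronectin and vitronectin, moved apart. ITGA5 (chr12:54395261-54419460) had 342 and 243 CPM in PA at 12 h, against 166 and 173 CPM in DMSO, and 218 and 285 CPM in PA at 24 h, against 109 and 129.6 CPM in DMSO. It was higher in every PA library than in any DMSO library of the same time. It rose by 0.78 ± 0.18 (adjusted p = 0.00314) and by 1.08 ± 0.18 (adjusted p = 0.00029), and by 0.30 (adjusted p = 0.0466) and 0.63 (adjusted p = 0.000319) in the corrected fit.

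ITGAV (chr2:186590065-186680901) had 85.7 and 192 CPM in PA at 12 h, against 369.6 and 309 CPM in DMSO, and 126 and 94.2 CPM in PA at 24 h, against 283 and 262 CPM in DMSO. Again the groups did not overlap. It fell by 1.29 ± 0.29 on the log2 scale at 12 h (adjusted p = 0.003) and by 1.30 ± 0.29 at 24 h (adjusted p = 0.00212). In the corrected fit the changes were -0.28 (adjusted p = 0.0823) and -0.27 (adjusted p = 0.0802) and neither call held. Without the first or the second PA library the 12 h change was -0.82 or -1.99. The ITGA5 over ITGAV ratio of RPKM was 6.47 and 2.05 in PA at 12 h, against 0.728 and 0.909 in DMSO, and 2.81 and 4.90 in PA at 24 h, against 0.624 and 0.798 in DMSO. The transcript of ITGA5 has 58.7% G or C and that of ITGAV 38.3%.

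ITGB5 had 412 and 474 CPM in PA at 24 h, against 343 and 362 CPM in DMSO (0.33 ± 0.12, adjusted p = 0.0301). The corrected fit gave 0.15 (adjusted p = 0.201), and the call ended without the second PA library (adjusted p = 0.156), the first DMSO library (adjusted p = 0.153) or the second DMSO library (adjusted p = 0.0724). ITGB3 and ITGB8, other partners of ITGAV, had mean levels of 0.616 and 0.254 RPKM and did not pass; reads of ITGB3 overlap those of another annotated gene on the same strand over 51.6% of its exons.

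ITGB2, the beta subunit of leukocyte integrins, was higher in PA although no leukocytes were part of the culture. It had 4.89 and 5.07 CPM in PA at 12 h, against 2.40 and 1.91 CPM in DMSO, and 4.44 and 4.50 CPM in PA at 24 h, against 2.09 and 1.60 CPM in DMSO. The groups were apart, with changes of 1.21 ± 0.23 (adjusted p = 0.00109) and 1.27 ± 0.23 (adjusted p = 0.000561), and 0.66 (adjusted p = 0.0426) and 0.71 (adjusted p = 0.0272) in the corrected fit. Of the 5 leukocyte markers, the other tested ones, CD14 and CD68, were also higher at both times, although CD68 passed narrowly at 12 h (0.52, adjusted p = 0.0494) and not in the corrected fit (0.05, adjusted p = 0.786). The defining markers PTPRC and CD3E stood at no more than 0.145 and 0.0357 CPM in any library. The summed level of the 5 markers was 52.2 to 84.6 CPM in PA at 12 h, against 43.7 to 46.7 CPM in DMSO, and 86.4 to 87.4 CPM in PA at 24 h, against 35.2 to 40.7 CPM in DMSO, most of it CD68. The part of such cells in the ITGB2 result was not tested beyond these levels.

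Among fibrillar collagens, COL1A1 and COL11A1 were higher in PA at 12 h, and COL5A1, COL5A2, COL24A1 and COL27A1 were lower. COL1A1 (chr17:50183289-50201632) had 23.2 and 22.5 CPM in PA at 12 h, against 10.6 and 8.15 CPM in DMSO, and 20.5 and 20.3 CPM in PA at 24 h, against 13.4 and 12.6 CPM in DMSO. The groups were apart at both times. It rose by 1.28 ± 0.16 at 12 h (adjusted p = 6.62e-05; corrected fit 0.79, adjusted p = 0.000736) and by 0.65 ± 0.16 at 24 h (adjusted p = 0.0035). The 24 h call ended in the corrected fit (0.14, adjusted p = 0.47).

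The vehicle cultures themselves moved in COL1A1, which had 18.8 and 19.8 CPM in DMSO at 0 h. DMSO at 12 h was below DMSO at 0 h by -1.04 ± 0.16 on the log2 scale (adjusted p = 0.00858), so that PA at 12 h stood near the 0 h level. That vehicle call ended without the second library of DMSO at 12 h (adjusted p = 0.121) or the second of DMSO at 0 h (adjusted p = 0.135). At 3 h COL1A1 had 28.9 and 25.6 CPM in PA, against 23.0 and 26.7 CPM in DMSO, and the effect of PA at 12 h exceeded that at 3 h by 1.15 ± 0.22 (adjusted p = 0.0177).

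COL5A1 and COL5A2, the chains of type V collagen, which sets the diameter of type I fibrils, were both lower at 12 h. COL5A1 had 42.3 and 40.7 CPM in PA at 12 h, against 63.8 and 62.8 CPM in DMSO, and 25.3 and 22.0 CPM in PA at 24 h, against 35.5 and 43.5 CPM in DMSO. With the groups apart, the changes were -0.61 ± 0.15 (adjusted p = 0.00468) and -0.74 ± 0.15 (adjusted p = 0.00112), and -1.04 and -1.19 in the corrected fit (adjusted p = 1.56e-05 and 2.96e-06). COL5A2 had 143 and 167 CPM in PA at 12 h, against 201 and 200.2 CPM in DMSO (-0.37 ± 0.12, adjusted p = 0.0227), and 141 and 154 CPM in PA at 24 h, against 160.3 and 153 CPM in DMSO (-0.08 ± 0.12, adjusted p = 0.596). The COL5A2 call ended in the corrected fit (-0.20, adjusted p = 0.12), without the first PA library (-0.26, adjusted p = 0.153) and without either DMSO library (adjusted p = 0.0918 and 0.0829).

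COL27A1 (chr9:114155560-114312511), a fibrillar collagen of cartilage, was lower at all 3 times. It had 4.39 and 4.16 CPM in PA at 3 h, against 8.37 and 6.37 CPM in DMSO, 5.32 and 5.39 CPM in PA at 12 h, against 13.2 and 12.9 CPM in DMSO, and 3.95 and 3.90 CPM in PA at 24 h, against 6.39 and 7.44 CPM in DMSO. No PA library overlapped a DMSO library of its time. The changes were -0.79 ± 0.18 (adjusted p = 0.0416), -1.28 ± 0.18 (adjusted p = 0.000138) and -0.82 ± 0.18 (adjusted p = 0.00209), and all 3 were larger in the corrected fit (-0.92, -1.76 and -1.31). The 3 h call ended without either PA library (adjusted p = 0.397 and 0.177) or the first DMSO library (-0.58, adjusted p = 0.309).

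COL24A1, another minor fibrillar collagen, was read from few molecules. It had 4 and 2 reads in PA at 3 h, against 29 and 19 reads in DMSO, and 1 and 0 reads in PA at 12 h, against 12 and 8 reads in DMSO. The fitted change at 3 h was -2.90 ± 0.64 (adjusted p = 0.0353), and this call ended without any of the 4 libraries (adjusted p = 0.256 and 0.192 without each PA library, 0.231 and 0.0783 without each DMSO library). At 12 h the call passed (adjusted p = 0.00509), and the depth-scaled ratio of PA to DMSO reads was 0.0557, with an exact 95% interval of 0.00134 to 0.348 that covers counting error only. At 24 h it had 13 and 11 reads in PA, against 11 and 8 in DMSO, and did not pass (adjusted p = 0.487). COL11A1 had 4.46 and 5.21 CPM in PA at 12 h, against 3.66 and 2.64 CPM in DMSO (0.62 ± 0.24, adjusted p = 0.0463), a call that ended without either PA library (adjusted p = 0.06 and 0.144) or the second DMSO library (0.40, adjusted p = 0.301). The corrected fit called COL11A1 higher at 12 h (0.85, adjusted p = 0.006) and at 24 h (0.88, adjusted p = 0.00332).

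The type IV chains are encoded in head-to-head gene pairs that share a promoter, and in each of the pairs below 1 chain was called and its neighbour was not. COL4A1 and COL4A2, the chains of the ubiquitous basement membrane network, start 127 bases apart, and COL4A5 and COL4A6 start 380 bases apart, by the RefSeq starts (GRCh38.p14). The sequences are shown because in the second pair COL4A6 rose at 24 h and COL4A5 did not pass. The interval between the starts of COL4A1 and COL4A2 is chr13:110307158-110307283, written on the minus strand, in the direction of COL4A1. The 250 bases before the starts of COL4A5 and COL4A6 are chrX:108439588-108439837 (plus strand) and chrX:108439459-108439708 (minus strand) and share 121 bases. All are written 5′ to 3′, with capitals for the GC box as above and for the CCAAT box, searched as CCAAT or ATTGG on both strands; the motifs do not overlap each other here.
COL4A1 and COL4A2: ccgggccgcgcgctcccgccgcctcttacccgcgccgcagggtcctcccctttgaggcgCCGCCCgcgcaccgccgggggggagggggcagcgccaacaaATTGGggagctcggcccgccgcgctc
COL4A5: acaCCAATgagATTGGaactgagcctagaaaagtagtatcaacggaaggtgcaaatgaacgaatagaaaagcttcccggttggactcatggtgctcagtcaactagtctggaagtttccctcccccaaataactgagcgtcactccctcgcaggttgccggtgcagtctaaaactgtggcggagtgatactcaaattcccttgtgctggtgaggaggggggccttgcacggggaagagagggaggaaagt
COL4A6: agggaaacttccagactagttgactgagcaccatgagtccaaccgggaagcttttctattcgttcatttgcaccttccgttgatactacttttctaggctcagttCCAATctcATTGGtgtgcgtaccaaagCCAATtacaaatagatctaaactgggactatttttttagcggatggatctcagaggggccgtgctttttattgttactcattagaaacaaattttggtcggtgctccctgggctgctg
The interval of COL4A1 and COL4A2 holds 1 GC box and 1 CCAAT box. The COL4A5 window holds 2 CCAAT boxes and the COL4A6 window holds 3, and neither has a GC box. Both boxes of COL4A5 lie in the 121 shared bases and are the same sites as 2 of the 3 of COL4A6, read on the other strand. COL4A6 has 2 RefSeq starts, and the start nearer to COL4A5 was used for its window and for the distance of 380 bases. Which start the reads of COL4A6 came from was not tested. A CCAAT box is present in 32% of all RefSeq windows of 250 bases.

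COL4A6 (chrX:108155607-108439497) had 4.27 and 2.23 CPM in PA at 24 h, against 0.553 and 0.447 CPM in DMSO. Both PA libraries were above every other library of the series, and COL4A6 rose by 2.69 ± 0.43 on the log2 scale (adjusted p = 0.00022), the largest rise of a called member at 24 h. The corrected fit gave 2.55 (adjusted p = 0.000171), and the change ranged from 2.14 to 3.11 with 1 library left out. At 12 h it had 1.04 and 0.714 CPM in PA, against 0.685 and 1.0 CPM in DMSO, with overlapping groups. The effect at 24 h exceeded that at 12 h by 2.63 (adjusted p = 0.1), which did not pass, while it passed in DESeq2 (adjusted p = 0.0158) and in the corrected fit (adjusted p = 0.0342). COL4A5, its neighbour, had 1.66 and 1.78 CPM in PA at 24 h, against 1.72 and 1.72 CPM in DMSO (-0.00 ± 0.27, adjusted p = 0.991).

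COL4A1 had 10.3 and 10.1 CPM in PA at 12 h, against 16.0 and 19.0 CPM in DMSO, with the groups apart (-0.78 ± 0.18, adjusted p = 0.00286). At 24 h it had 7.58 and 5.96 CPM in PA, against 8.73 and 9.45 CPM in DMSO (-0.42 ± 0.18, adjusted p = 0.0604). COL4A2 had 44.8 and 35.3 CPM in PA at 12 h, against 45.4 and 47.8 CPM in DMSO (-0.22 ± 0.17, adjusted p = 0.291). In the corrected fit both chains were lower at both times: COL4A1 by -1.02 and -0.62 (adjusted p = 0.000242 and 0.00874) and COL4A2 by -0.76 and -0.64 (adjusted p = 6.52e-05 and 0.000212). Whether the changes of these neighbours differed from each other was not tested.

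COL18A1 had 383 and 455 CPM in PA at 24 h, against 295 and 349 CPM in DMSO (0.38 ± 0.15, adjusted p = 0.0466). The call did not hold without the second PA library (0.29, adjusted p = 0.216) or the first DMSO library (0.27, adjusted p = 0.282), and in the corrected fit the direction turned to -0.28 (adjusted p = 0.0236). Its transcript has 67.2% G or C, and 16.4% of its exon bases overlap SLC19A1 on the other strand, with the strand setting of the counting not given. COL7A1, the anchoring fibril of epithelia, had 54.6 and 55.6 CPM in PA at 24 h, against 66.2 and 82.9 CPM in DMSO, and missed the threshold (-0.44 ± 0.18, adjusted p = 0.053). In the corrected fit COL7A1 was lower, by -0.96 at 12 h (adjusted p = 4.38e-05) and by -1.03 at 24 h (adjusted p = 1.39e-05).

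COL6A1 and COL6A2, chains of type VI collagen, which forms beaded filaments around cells, were higher in PA, and COL6A3 did not pass. COL6A1 (chr21:45981737-46005050) had 6.62 and 5.14 CPM in PA at 12 h, against 2.84 and 2.64 CPM in DMSO, and 9.20 and 8.40 CPM in PA at 24 h, against 3.29 and 2.87 CPM in DMSO. Groups were apart at both times, by 1.10 ± 0.20 (adjusted p = 0.000804) and 1.51 ± 0.20 (adjusted p = 5.24e-05). The 24 h call held in the corrected fit (0.87, adjusted p = 0.00116), and the 12 h call did not (0.45, adjusted p = 0.0733).

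COL6A2 had 5.76 and 2.86 CPM in PA at 12 h, against 1.78 and 2.24 CPM in DMSO, and 4.97 and 5.65 CPM in PA at 24 h, against 2.40 and 2.59 CPM in DMSO. It rose by 1.09 ± 0.30 (adjusted p = 0.00837) and 1.09 ± 0.29 (adjusted p = 0.00588), and neither call held in the corrected fit (0.31 and 0.33, adjusted p = 0.335 and 0.259). The 12 h call also ended without the first PA library (0.50, adjusted p = 0.202) or the first DMSO library (0.94, adjusted p = 0.0748). COL6A3, a longer chain of type VI collagen, had a mean level of 0.0564 RPKM and changes of -0.93 at 12 h (adjusted p = 0.143) and -0.10 at 24 h (adjusted p = 0.886).

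COL12A1 (chr6:75084326-75206051), which decorates the surface of fibrils, had 0.827 and 1.79 CPM in PA at 12 h, against 5.89 and 5.06 CPM in DMSO, and 0.881 and 1.39 CPM in PA at 24 h, against 2.83 and 2.97 CPM in DMSO. The groups did not overlap. It fell by 2.06 ± 0.32 on the log2 scale at 12 h (adjusted p = 0.000272) and by 1.34 ± 0.33 at 24 h (adjusted p = 0.00356), and both calls held in the corrected fit (-1.73 and -0.96, adjusted p = 0.000234 and 0.0159). Without 1 of the PA libraries the 12 h change lay between -2.72 and -1.61.

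COL13A1, a transmembrane collagen of cell contacts, had 70.1 and 66.8 CPM in PA at 12 h, against 104 and 128 CPM in DMSO, and 70.2 and 62.9 CPM in PA at 24 h, against 83.3 and 105 CPM in DMSO. Again both PA libraries were the lower ones, and the changes were -0.76 ± 0.18 (adjusted p = 0.00466) and -0.50 ± 0.18 (adjusted p = 0.0336), or -1.30 and -1.04 in the corrected fit (adjusted p = 2.39e-05 and 9.73e-05). The 12 h call ended without the second DMSO library (adjusted p = 0.0538), and the 24 h call without either PA library (adjusted p = 0.0578 and 0.202) or the second DMSO library (-0.32, adjusted p = 0.256). COL9A3, a chain of cartilage type IX collagen, had 6.62 and 4.39 CPM in PA at 12 h, against 2.26 and 2.64 CPM in DMSO (1.17 ± 0.24, adjusted p = 0.00178), which ended in the corrected fit (0.32, adjusted p = 0.196). The remaining 9 collagens, COL3A1, COL6A3, COL9A2, COL11A2, COL16A1, COL17A1, COL21A1, COL22A1 and COL28A1, had mean levels of at most 0.627 RPKM and passed at no time as first fitted. The corrected fit called COL21A1 higher at 12 h (0.89, adjusted p = 0.0167) and COL16A1 lower at 24 h (-0.47, adjusted p = 0.0373).

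The change of a member was related to the GC content of its transcript. Over the 52 members the Pearson correlation of the log2 change with GC content was 0.37 at 3 h, 0.51 at 12 h and 0.48 at 24 h (Spearman 0.36, 0.49 and 0.47), given as a description, since the genes share libraries and their base composition. Collagens had a median GC content of 58.9%, laminins of 50.6%, integrins of 51.0% and all genes with a known value of 48.8%. Of the 16 members below the median of all genes, 1 was higher and 8 were lower in PA at 12 h, and 0 were higher and 6 lower at 24 h. Of the 36 members above it, 7 were higher and 7 lower at 12 h, and 12 higher and 6 lower at 24 h. The same split was not counted over all genes. It cannot be read as particular to the members, since the counts of all tested genes leaned with GC content.

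After correction for GC content and length, these correlations were 0.10, 0.02 and -0.06 at 3, 12 and 24 h. At 12 h the corrected fit called 5 members higher and 15 lower, against 40.4% of all genes called (22.9% higher and 17.5% lower), and at 24 h it called 7 higher and 17 lower, against 49.7% (27.7% higher and 22% lower). At 3 h it called 4 lower and 0 higher (4.42% of all genes, 2.48% lower and 1.94% higher), with all 3 earlier calls among them. Of the 23 calls at 12 h, 15 held with the same direction and 8 ended, and 5 new ones were made. Of the 24 calls at 24 h, 15 held, 8 ended and 1, COL18A1, was called in the opposite direction, and 8 new ones were made. Those that held at both 12 and 24 h were COL5A1, COL12A1, COL13A1, COL27A1, ITGA2, ITGA6, LAMA3 and LAMB1, all lower in PA, and ITGA5 and ITGB2, both higher. The correction removes any change tied to GC content, whether it arose in the cells or in the libraries, and these cannot be told apart here. Scaling by the deposited RPKM shifted the log2 changes of all genes by a median of -0.13 at 12 h and -0.28 at 24 h on the log2(RPKM + 1) scale, and there the 24 h calls of COL1A1, COL18A1, ITGA3, ITGB5 and LAMB3 ended.

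**Figure D4:**
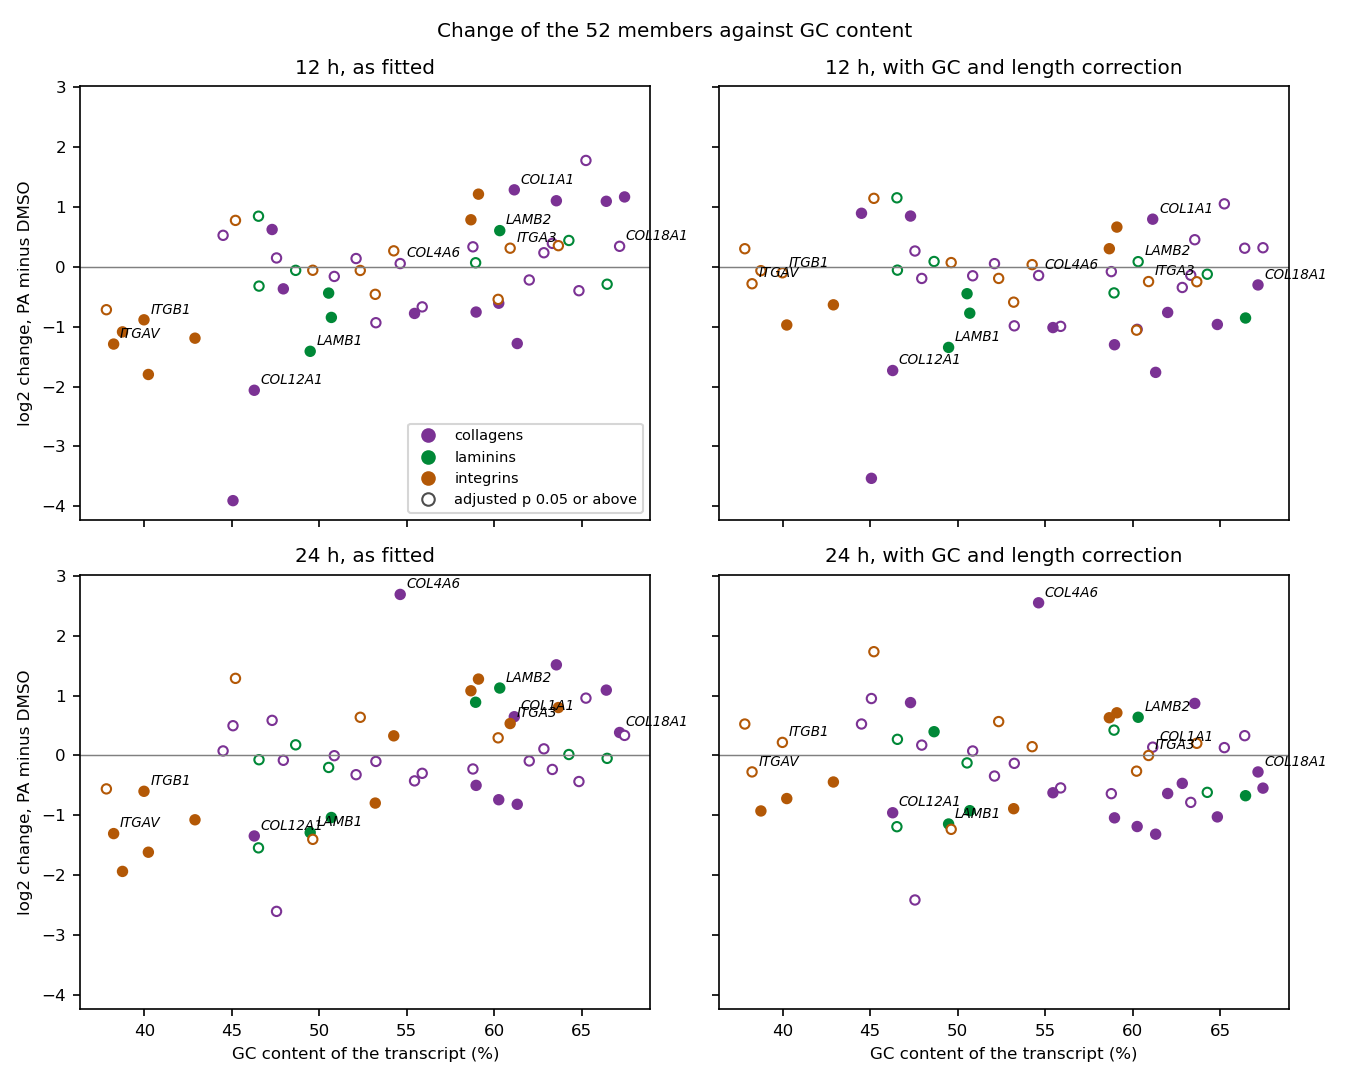
Log2 change of the 52 members, PA minus DMSO, against the GC content of the longest transcript in percent, at 12 h (top) and 24 h (bottom), as fitted (left) and with the correction for GC content and length (right); filled points passed an adjusted p of 0.05. The rise of the cloud from left to right, a Pearson correlation of 0.51 at 12 h and 0.48 at 24 h, is gone after correction (0.02 and -0.06), and COL12A1 and LAMB1 stay below 0 and COL4A6 above 0.

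Changes between times were tested on the effects themselves. The effect at 12 h minus that at 3 h passed in 1 member, COL1A1, which was higher, against 2.79% of all genes (2.1% higher and 0.685% lower); 6 members had an unadjusted p under 0.05 in the higher and 8 in the lower direction, and DESeq2 called 4 higher and 5 lower. The 423 genes behind this background became 5007 without the second PA library at 12 h and 42 to 416 without any of the other 7 libraries. The effect at 24 h minus that at 12 h passed in 0 members (edgeR; 0.422% of all genes, 0.263% higher and 0.158% lower); 3 members in each direction had an unadjusted p under 0.05, and DESeq2 called 1, COL4A6. In the vehicle cultures, 2 members, COL27A1 among them, were higher and COL1A1 was lower in DMSO at 12 h than in DMSO at 0 h (1.46% of all genes, 0.323% higher and 1.13% lower), and ITGA3 was lower in DMSO at 24 h than at 0 h (2.46% of all genes, 0.527% higher and 1.93% lower). Without any of their 4 libraries the vehicle calls of COL27A1 (adjusted p up to 0.414) and ITGA3 (up to 0.465) ended. With 1 library left out, the counts of all genes called ranged from 3 to 521 for 24 h minus 12 h, against 64 in the full fit, from 9 to 57 for DMSO at 12 h minus 0 h, against 221, and from 26 to 105 for DMSO at 24 h minus 0 h, against 373.

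The counts in the following lists stand beside a background of 24.4% of all genes higher and 24.1% lower at 12 h, and 27.2% and 27.5% at 24 h (corrected fit 22.9% and 17.5%, 27.7% and 22%). Of 21 tested genes that modify collagen in the endoplasmic reticulum and move it out of the cell, 12 were higher and 4 lower in PA at 12 h, and 12 and 3 at 24 h, with median log2 changes of 0.48 and 0.67. The corrected fit called 9 higher and 2 lower at 12 h, and 10 and 2 at 24 h, with medians of 0.01 and 0.46. P4HA2, a catalytic subunit of the prolyl hydroxylase that stabilises the triple helix, had 102 ± 10.1 CPM in PA at 24 h and 29.2 ± 0.402 CPM in DMSO (SD, n = 2 each), a rise of 1.80 ± 0.14 (edgeR adjusted p = 2.13e-06). P4HA1, the other main catalytic subunit, rose by 1.07 ± 0.17 at 24 h (adjusted p = 0.000199), and their partner P4HB by 0.98 ± 0.13 (adjusted p = 5.65e-05). PLOD1, a lysyl hydroxylase, had 238 ± 26.9 CPM in PA at 24 h and 113 ± 0.0128 CPM in DMSO (SD, n = 2 each; 1.07 ± 0.15, adjusted p = 8.26e-05). P4HA1, P4HA2 and P4HB were higher at 24 h also in the corrected fit, by 1.73, 1.85 and 0.39.

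P4HA1 and P4HA2 are known targets of hypoxia-inducible factor, so a list of 10 hypoxia genes was set beside them. Of these, 9 were higher and none lower at 12 and at 24 h, in both fits, and NDRG1, SLC2A1, BNIP3 and LDHA had log2 changes of 2.59, 1.45, 1.59 and 1.16 at 24 h. Whether hypoxia-inducible factor had a part in the rise of P4HA1 and P4HA2 was not tested. Of 12 genes of TGF-beta signalling and response, 2 were higher and 5 lower at 12 h, and 3 and 2 at 24 h (corrected fit 1 and 4, 2 and 2). TGFB2, a TGF-beta ligand, fell by 1.13 on the log2 scale at 24 h (adjusted p = 0.000403; corrected fit -0.18, adjusted p = 0.158). TGFB1 and TGFB1I1 were higher at 24 h by 0.84 and 0.94 (corrected fit 0.08 and 0.10, adjusted p = 0.556 and 0.622).

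Of 12 tested genes that trim and crosslink collagen, 2 were higher and 0 lower at 12 h, and 4 and 0 at 24 h (corrected fit 2 and 1, 3 and 1). At 24 h these were TGM2, a transglutaminase (0.86 ± 0.16, adjusted p = 0.000516), PCOLCE, an enhancer of procollagen cleavage (1.19 ± 0.23, adjusted p = 0.000821; corrected fit 0.39, adjusted p = 0.121), and the lysyl oxidases LOXL2 (0.90 ± 0.19, adjusted p = 0.00127) and LOX. LOX was read at 0.439 ± 0.177 CPM in PA and 0.0798 ± 0.113 CPM in DMSO at 24 h (SD, n = 2 each; adjusted p = 0.0337). TGM2 had 204 ± 36.7 CPM in PA and 113 ± 9.86 CPM in DMSO at 24 h, and 191 ± 16.9 CPM in DMSO at 0 h (SD, n = 2 each). Of 14 tested basement membrane partners and laminin receptors, 4 were higher and 2 lower at 12 h, and 5 and 1 at 24 h (corrected fit 3 and 6, 7 and 6).

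BCAM, a receptor of LAMA5, had 9.75 ± 0.572 CPM in PA at 24 h and 2.74 ± 0.0363 CPM in DMSO (SD, n = 2 each; 1.83 ± 0.25, adjusted p = 7.97e-05). CD151, a tetraspanin bound to ITGA3 and ITGA6, had 355 ± 69.2 CPM in PA at 24 h and 141 ± 5.52 CPM in DMSO (SD, n = 2 each; 1.33 ± 0.19, adjusted p = 0.000105; corrected fit 0.50, adjusted p = 0.00171). SPARC, a collagen-binding protein of the basement membrane, was higher by 2.46 ± 0.42 at 12 h and 1.99 ± 0.35 at 24 h (adjusted p = 0.000566 and 0.000439), at no more than 5.39 CPM. RPSA, a ribosomal protein also described as a laminin receptor, was higher by 0.56 at 24 h (adjusted p = 0.0153). Its level there was 16.5 ± 2.18 CPM in PA and 11.2 ± 0.0732 CPM in DMSO (SD, n = 2 each).

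Of 16 tested collagen receptors outside the integrins and integrin ligands, 4 were higher and 5 lower at 12 h, and 5 and 4 at 24 h (corrected fit 3 and 4, 3 and 5), near the share of all genes called, 48.5% at 12 h and 54.6% at 24 h. THBS1, a matricellular ligand, had 12.9 ± 0.0971 CPM in PA at 24 h and 44.0 ± 3.81 CPM in DMSO (SD, n = 2 each; -1.76 ± 0.22, adjusted p = 4.36e-05; corrected fit -1.34). CYR61, a ligand of ITGAV, fell by 1.35 at 12 h (adjusted p = 9.31e-05) and by 0.57 at 24 h (adjusted p = 0.0125). CTGF was lower at 12 h by -1.15 (adjusted p = 0.000389), with no call at 24 h (0.21, adjusted p = 0.349). DDR1, a receptor kinase for collagen, was higher by 1.15 and 1.36 at 12 and 24 h (adjusted p = 0.00037 and 6.96e-05; corrected fit 0.53 and 0.78).

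Of 33 tested genes of the machinery that couples integrins to the cytoskeleton, 13 were higher and 6 lower at 12 h, and 16 and 5 at 24 h, with medians of 0.39 and 0.38 (corrected fit 7 and 5, 13 and 5, medians 0.04 and 0.15); of all genes, 48.5% were called at 12 h and 54.6% at 24 h (corrected fit 40.4% and 49.7%). PARVB, a parvin of focal adhesions, had 119 ± 6.68 CPM in PA at 24 h and 34.6 ± 0.584 CPM in DMSO (SD, n = 2 each; 1.79 ± 0.18, adjusted p = 9.65e-06; corrected fit 1.71). DST, the plakin that ties ITGB4 to keratin filaments, had 66.6 ± 21.3 CPM in PA at 12 h and 412 ± 45.0 CPM in DMSO (SD, n = 2 each), and fell by 2.63 ± 0.34 on the log2 scale (adjusted p = 9.12e-05; corrected fit -1.77). ACTN4, an actin crosslinker, was higher by 0.98 at 24 h (adjusted p = 0.000157). At 3 h the lists from collagen modification to adhesion machinery, with 21, 12, 14, 16 and 33 tested genes, together held 3 calls. SDC4 was higher, and DDR2 and DST were lower. Of all genes, 0.138% were higher and 1.58% lower at 3 h, a background that was itself unsteady, as given above.

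**Figure D5:**
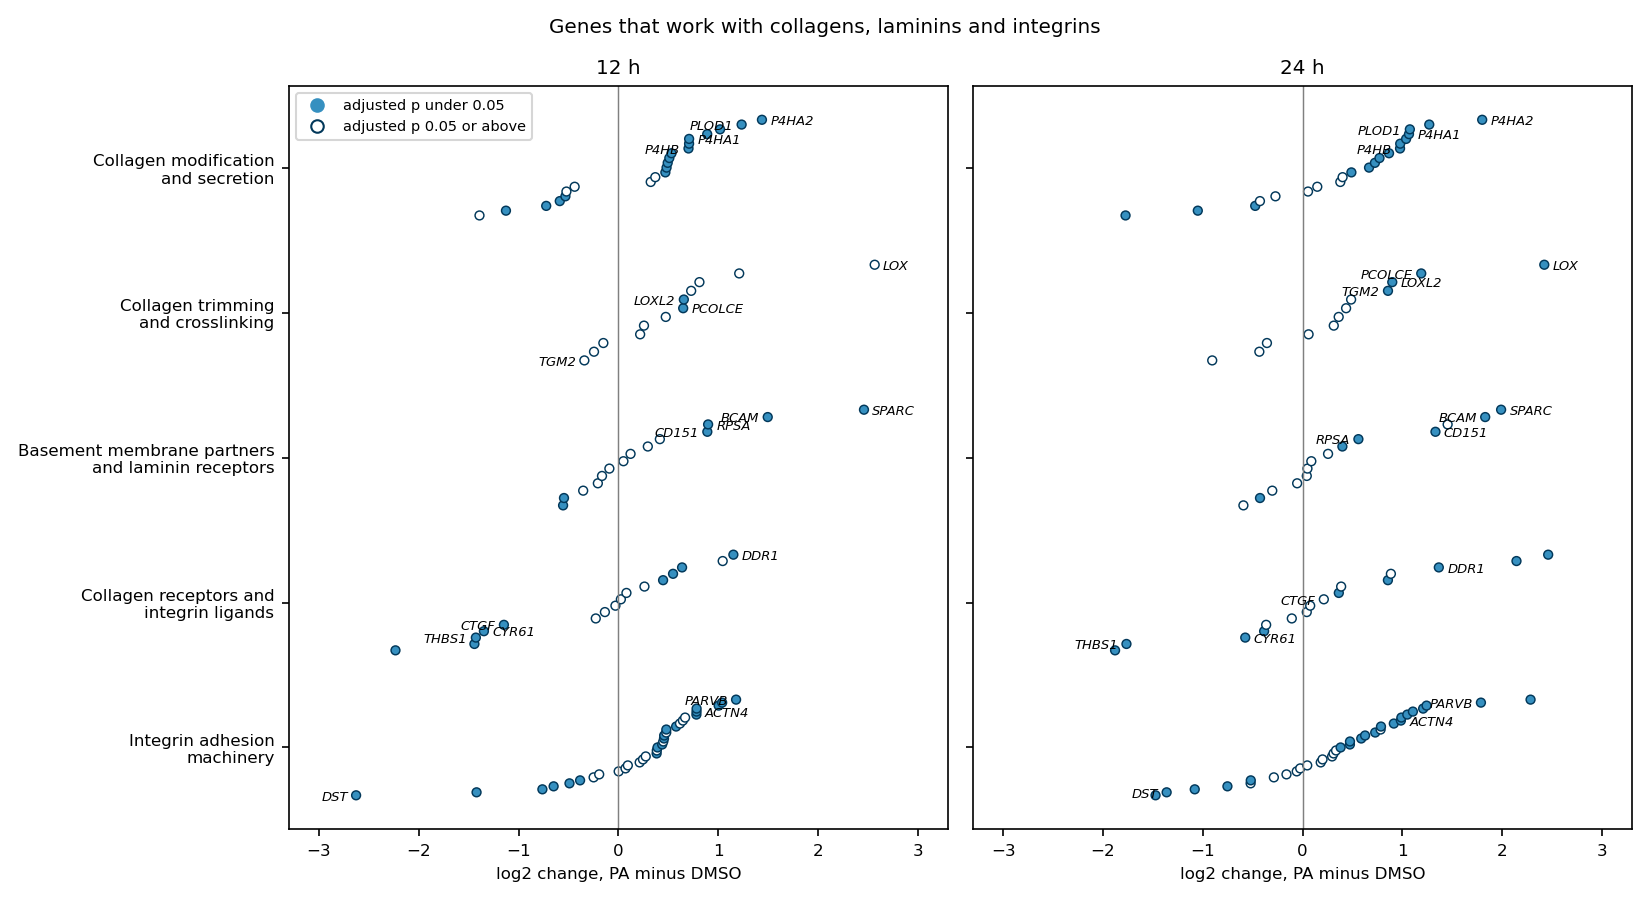
Log2 change, PA minus DMSO, of the tested genes of 5 lists at 12 h (left) and 24 h (right); each point is a gene, points of a list are spread vertically in order of their change, and filled points passed an adjusted p of 0.05. Most of the modification and secretion genes lie right of 0, 12 of 21 called higher at both times, with P4HA2 at 1.44 and 1.80.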

How the data were processed

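RNA was measured in 14 libraries of PANC-1 cells (7 groups of 2) by paired reads of 151 nt. The authors deposited a table of read counts per gene, not normalized, and a table of RPKM; the submitters' processing notes name TopHat2, edgeR and the build GRCh38, with no roles or versions. No source used here gives the counting tool, its strand setting or the gene lengths behind the RPKM. In the count table, 8163 lines held 1 extra empty field, which was skipped (6581 lines in the RPKM table).

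Counts were fitted with edgeR 4.0.16 (R 4.3.3) over all 14 libraries, with TMM scaling, filterByExpr and the quasi-likelihood test, two-sided, with Benjamini-Hochberg adjustment over 15181 genes and a threshold of 0.05. CPM are counts scaled to 1000000 of the TMM-adjusted library size. The biological coefficient of variation was 15.1% with 7 residual degrees of freedom. GC content and length came from the GENCODE 29 annotation for 15071 tested genes and entered the corrected fit as natural splines with 5 degrees of freedom. Alternatives were DESeq2 1.42.0 and its size factors, no filter, a filter of 5 CPM in 2 libraries, a replicate block, the compared libraries alone, limma 3.58.1 with a pseudocount of 1 or 0.1 on log2 RPKM, a minimum of 1 RPKM in 2 libraries, and each library left out. Scripts were tested on simulated data.

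Members and lists (collagen modification and secretion, trimming and crosslinking, basement membrane partners and laminin receptors, collagen receptors and integrin ligands, adhesion machinery, hypoxia, TGF-beta, and cell type markers) were chosen with earlier results of these data known. Named were, in each family and direction, up to 6 members with the largest change among those called at 12 or 24 h with a mean of at least 2 CPM, each member called at 3 h, the 5 of each family with the highest mean RPKM, and up to 4 genes of each list with the smallest p; ITGA10, COL7A1, COL9A3, COL4A5 and others beyond this were added for their place in the family after their values were seen. A few genes that this rule names are not reported here. Intervals cover counting error only.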

Additional observations from a re-analysis of the deposited data

Results flagged for a closer look

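The effect of PA on COL1A1 differed between times: it was 1.28 ± 0.16 on the log2 scale at 12 h and 0.13 ± 0.16 at 3 h, a difference of 1.15 ± 0.22 (edgeR adjusted p = 0.0177, over all genes tested). The corrected fit gave a difference of 0.82 (adjusted p = 0.028). The call ended without the second library of PA at 3 h (1.07, adjusted p = 0.108) or the second of DMSO at 12 h (0.97, adjusted p = 0.113). COL1A1 was at 23.2 and 22.5 CPM in PA at 12 h, against 10.6 and 8.15 CPM in DMSO at 12 h. At 3 h it was at 28.9 and 25.6 CPM in PA, against 23.0 and 26.7 CPM in DMSO. Both groups were thus lower at 12 h than at 3 h, DMSO by more, and the level in PA did not rise. What underlies the difference between the times was not tested.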

How the results depend on the processing

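No alternative made a 3 h call in the higher direction. Of the 3 lower calls at 3 h, DESeq2 size factors and the replicate block each left 1, and the RPKM settings (log2(RPKM + 1), log2(RPKM + 0.1) and the RPKM filter) left 0. The 8 higher calls at 12 h became 5 with the compared libraries alone, 5 with the GC and length correction and 4 with that correction and the replicate block. The 12 higher calls at 24 h became 7 under both RPKM pseudocounts, 6 with the RPKM filter and 7 with the correction, without or with the block. For the effect at 12 h minus that at 3 h, higher calls (1) numbered 4 in DESeq2, 4 without a filter, 0 with own libraries alone or either pseudocount, 3 with the correction and 2 with the block added; lower calls (0) numbered 5, 6, 0 with own libraries alone, 1 with log2(RPKM + 1), 1 with the RPKM filter, 8 and 5. For 24 h minus 12 h, DESeq2, no filter and the correction each gave 1 higher call. For DMSO at 12 h minus 0 h, higher calls (2) were 0 with the block, 9 with own libraries alone and 1 with log2(RPKM + 0.1), and lower calls (1) were 2 with own libraries alone. For DMSO at 24 h minus 0 h, lower calls (1) were 2 in DESeq2, 0 with 5 CPM, 0 with the block, 10 with own libraries alone, 0 with log2(RPKM + 0.1) and 3 with the correction. The cause was not tested.

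At 24 h the correction reversed COL18A1 (-0.28), ITGA3 (-0.00086) and ITGB1 (0.22), and with the replicate block COL18A1 (-0.28), ITGA3 (-0.00021) and ITGB1 (0.22). With 1 library left out, lower calls ranged from 0 to 1 at 3 h, 12 to 16 at 12 h and 11 to 12 at 24 h, and higher calls from 5 to 10 at 12 h and 8 to 12 at 24 h. For 12 h minus 3 h they ranged from 0 to 7 higher and 0 to 8 lower, both highest without the second PA library at 12 h. For 24 h minus 12 h they ranged from 0 to 2 higher. Vehicle calls were 0 higher and 0 to 1 lower at 12 h, and 0 lower at 24 h. The full fit did not pair libraries by replicate number. Residuals of same-numbered libraries correlated above 0.1 in 2 of 21 pairs of groups (range -0.218 to 0.244). These correlations cannot exclude a culture or batch shared by libraries of the same number. A fit that leaves a group with 1 library assumes that it varies like the other groups. For the 23 members below the reading minimum no change could be measured at this depth.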
